A study of Mus musculus with 12 samples.

Results

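A set of 10 lymphoid priming genes was followed here across mouse blood stem and progenitor cells with altered Tet2, an enzyme that oxidises methylated cytosine in DNA. The set is Dntt, Il7r, Rag1, Rag2, Satb1, Ikzf1, Notch1, Bcl11a, Mef2c and Tcf3, chosen by symbol from the count tables, and all 10 were found among 24538 genes. LSK cells, which lack mature lineage markers and carry Sca-1 and Kit on their surface, and cells labelled MPP, for multipotent progenitor, had been sorted by flow cytometry from bone marrow. The groups were LSK KO, LSK Mut, LSK WT, MPP KO, MPP Mut and MPP WT, where KO is Tet2 knockout, Mut is Tet2 mutant and WT is wild type, with 2 RNA-seq libraries in each of the 6 groups and 12 in all. All animals were of a 129/C57/B6 mixed background. For each genotype, marrow of 2 mice was pooled at an age of 10 weeks. The 2 libraries of a group were technical replicates made from that pool. Every p-value and SD below therefore measures the spread between libraries and not between mice. The labels state neither the residues changed in Mut, nor how the KO allele was made, nor the sorting gates of the MPP cells, and the titles call those cells Lin where the descriptions say MPP.

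Lymphoid priming is the early, low-level transcription of lymphocyte genes in progenitors that can still form other blood lineages. The transcription factors of the set act first: Ikaros (Ikzf1), E2A (Tcf3), Mef2c, Bcl11a and Satb1 open or organise lymphoid genes in multipotent progenitors, and mouse mutants of several of them lose B or T cell development. The interleukin-7 receptor and Notch1 receive the signals that expand B and T cell precursors, and Notch1 directs the T cell choice. Rag1 and Rag2 form the recombinase that cuts antigen receptor gene segments, and terminal transferase (Dntt) adds untemplated nucleotides at the joints.

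The stretches of 250 bases upstream of the RefSeq start of 4 members are printed because these members carry the differences described below: Dntt and Notch1 were lower in LSK Mut than in LSK WT libraries, whereas Il7r and Rag2 had their lowest or highest levels among the MPP groups. The sequences are RefSeq's for build GRCm38.p6, written 5′ to 3′ on the strand of the gene, with capitals for matches to the E box CANNTG, the kind of site that E proteins such as E2A bind. They lie at chr19:41029025-41029274 on the plus strand for Dntt, chr2:26503823-26504072 on the minus strand for Notch1, chr15:9529877-9530126 on the minus strand for Il7r and chr2:101624462-101624711 on the plus strand for Rag2.
Dntt: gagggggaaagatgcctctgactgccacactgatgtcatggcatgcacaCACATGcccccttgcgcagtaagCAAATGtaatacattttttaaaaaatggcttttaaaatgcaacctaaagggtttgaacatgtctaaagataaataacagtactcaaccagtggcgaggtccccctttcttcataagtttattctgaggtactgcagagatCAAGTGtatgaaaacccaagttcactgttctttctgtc
Notch1: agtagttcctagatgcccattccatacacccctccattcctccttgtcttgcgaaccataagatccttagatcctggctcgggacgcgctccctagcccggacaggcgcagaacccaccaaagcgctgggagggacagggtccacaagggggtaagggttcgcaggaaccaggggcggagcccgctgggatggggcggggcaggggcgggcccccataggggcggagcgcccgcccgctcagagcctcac
Il7r: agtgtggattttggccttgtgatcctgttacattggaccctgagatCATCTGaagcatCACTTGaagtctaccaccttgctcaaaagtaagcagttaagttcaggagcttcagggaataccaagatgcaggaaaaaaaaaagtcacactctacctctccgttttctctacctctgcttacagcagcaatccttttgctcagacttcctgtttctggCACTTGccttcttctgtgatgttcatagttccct
Rag2: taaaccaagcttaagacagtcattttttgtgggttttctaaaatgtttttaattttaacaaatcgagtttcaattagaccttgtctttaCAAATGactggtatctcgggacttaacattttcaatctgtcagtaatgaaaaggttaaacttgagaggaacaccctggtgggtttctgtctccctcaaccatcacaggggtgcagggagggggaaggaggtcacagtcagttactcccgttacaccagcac

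The E box was found 3 times in the Dntt stretch, 3 times in that of Il7r, once in that of Rag2 and not in that of Notch1. CANNTG has the same form on both strands, and 66.2% of 32851 RefSeq stretches of this length hold at least 1. The narrower letters CAGGTG, or CACCTG on the other strand, are a case of the E box, are preferred by E2A, and occur in 17.2% of stretches. They were in none of the 4 stretches shown but were in that of Rag1, 135 bases before its start, and in 1 of the 5 of Satb1. The letters TGGGAA, or TTCCCA on the other strand, form the core that Ikaros sites and the sites of RBPJ, the DNA-binding partner of Notch, have in common, and 21.6% of stretches hold them. They were absent from the 4 stretches shown and present in those of Rag1 and Bcl11a and in 1 of the 5 of Satb1. A match is a description of letters, and a missing match says only that these letters are not in this window.

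Both libraries of LSK WT differed in kind from the remaining 10, which bears on every LSK comparison with WT. At least 1 count was found for 12470 and 12614 genes there, where the remaining libraries had 13333 to 14264 such genes. Their 2 libraries correlated across genes at r = 0.879 on log2(CPM + 1), against 0.957 to 0.968 within the other groups, and 1.602% of genes averaging at least 50 counts had a 0 in one of them, against 0.0191% to 0.485% elsewhere. Levels are in CPM, reads per 1000000 reads assigned to genes, with library sizes scaled by TMM, a method that sets the typical gene equal between libraries. Depth was 9181027 to 23532847 gene counts, and a gene without reads could still be present at up to 0.135 to 0.317 CPM (3 counts, counting error only). Tet2 checks the labels: it was at 30.5 ± 1.82 CPM in LSK KO, 43.9 ± 0.639 in LSK Mut and 74.97 ± 17.4 in LSK WT, but at 34.9 ± 0.00964 in MPP KO, 38.8 ± 1.97 in MPP Mut and 34.5 ± 7.22 in MPP WT (SD, n = 2 each). KO did not pass edgeR's quasi-likelihood test against WT (adjusted p = 0.207 in LSK and 0.999 in MPP), so Tet2 counts do not show the knockout in the libraries labelled MPP KO, and how the KO allele changes the transcript is not given in the sources used here.

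Markers also bear on the MPP label. The summed level of 8 granulocyte-monocyte progenitor genes, led by Mpo (myeloperoxidase) and Elane (neutrophil elastase), was 2063 to 6166 CPM in the LSK libraries and 48160 to 63050 CPM in the MPP libraries. The summed level of 8 stem cell and LSK gate genes was 1887 to 2324 CPM in LSK and 465 to 630 CPM in MPP. Kit, the stem cell factor receptor, averaged 534 to 594 CPM in the LSK groups and 179.8 to 262 CPM in the MPP groups, and Mecom, a stem cell transcription factor, averaged 25.7 to 58.0 CPM in the LSK groups and 0 to 2.19 CPM in the MPP groups. The libraries labelled MPP thus held more of the myeloid progenitor and less of the stem cell transcripts, and MPP is used below only as the submitters' name.

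Compared per length, as CPM per kilobase of merged GENCODE exon, the members spanned a wide range. In LSK KO, Dntt led with 149.9 ± 15.6 CPM per kilobase, followed by Tcf3 with 50.5 ± 2.68 and Ikzf1 with 36.4 ± 3.97 (SD, n = 2 each). Mef2c, Satb1, Notch1 and Bcl11a came next at 10.3 to 15.7, and Il7r and Rag2, at 1.25 ± 0.477 and 1.23 ± 0.315, did not differ beyond their spread. In MPP WT the order was led by Tcf3 at 78.7 ± 21.1, and Dntt at 29.2 ± 6.26 and Ikzf1 at 29.0 ± 3.28 did not differ beyond their spread. Il7r stood at 7.68 ± 2.12 in MPP WT, beside Bcl11a at 7.96 ± 1.90. Rag1 was last in all 6 groups, at 0.161 CPM per kilobase or less.

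**Figure D1:**
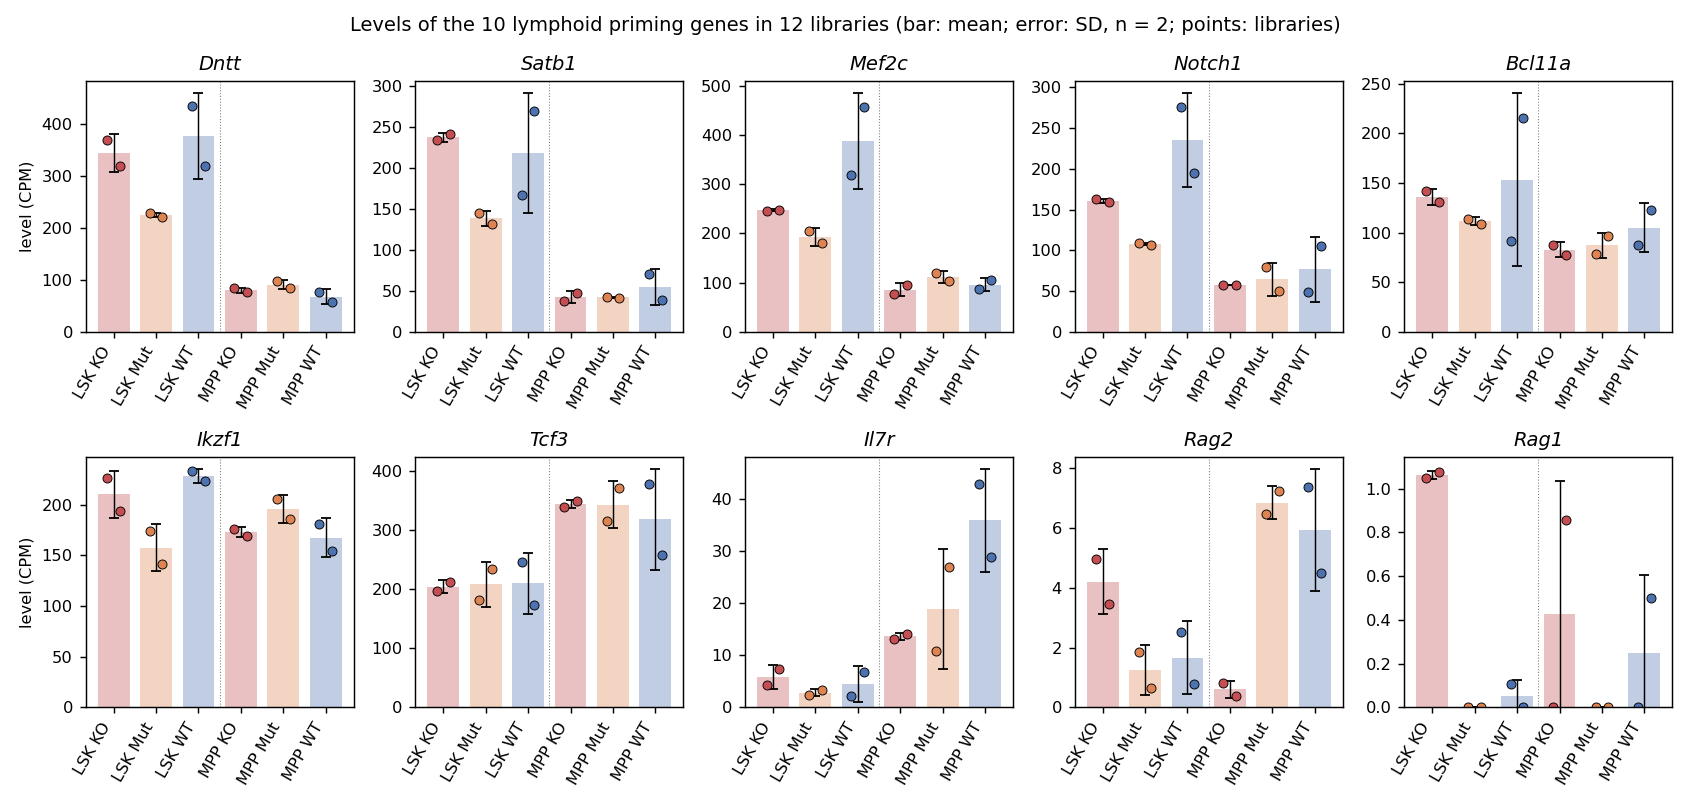
Level in CPM (vertical axes, from 0, with a scale for each gene) of the 10 members in the 6 groups (horizontal axes), with bars for the mean, error bars for the SD of 2 libraries and points for the libraries. Dntt, Satb1, Mef2c and Notch1 are higher in LSK than in MPP groups, Il7r is highest in MPP WT at 42.8 and 28.8 CPM, and Rag2 is lowest in MPP KO at 0.81 and 0.39 CPM.

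Of the recombination enzymes, terminal transferase was by far the most abundant. Dntt (chr19:41029275-41059525, plus strand, 13 merged exons in GENCODE of GRCm38) had 369 and 318 CPM in the LSK KO libraries, 228 and 221 CPM in LSK Mut and 435 and 318 CPM in LSK WT. The MPP libraries had 83.4 and 76.1 CPM in KO, 96.8 and 84.2 CPM in Mut and 77.1 and 56.8 CPM in WT. Both LSK Mut libraries lay below the other 4 LSK libraries, the lower WT library was level with the lower KO library, and no MPP library reached any LSK library. In these bulk samples fewer cells of a type and less RNA per cell cannot be told apart, here and for every gene below.

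The recombinase genes were low, and Rag1 was near the limit of detection. Rag2 (chr2:101624718-101632529, plus strand) had 4.97 and 3.45 CPM in LSK KO, 1.85 and 0.65 CPM in LSK Mut and 2.53 and 0.80 CPM in LSK WT. The level of Rag2 in MPP was 0.81 and 0.39 CPM in KO, against 6.48 and 7.24 CPM in Mut and 7.39 and 4.50 CPM in WT. The KO libraries were thus the highest of the LSK libraries and the lowest of the MPP libraries, on totals of 138 and 16 counts. Rag1 (chr2:101638282-101649501, minus strand) had 19 and 15 counts in LSK KO, 0 in both LSK Mut libraries and 1 and 0 in LSK WT. In MPP it had 0 and 11 counts in KO, 0 in both Mut libraries and 0 and 5 in WT. Every count of Rag1 in MPP thus came from the second library of its group. Per library size, the observed level of Rag1 in LSK KO was 12.9-fold above the floor of 3 counts taken over the LSK Mut group. That ratio leaves out the counting error of the KO counts, and Rag1 was not called in KO against Mut (edgeR). The ratio of its CPM in LSK KO to that in LSK WT was 23.4 (exact 95% interval 3.92 to 950.1, counting error only).

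The 2 recombinase genes are neighbours that point at each other, and the gene B230118H07Rik runs through the locus. It shares 208 exon bases with Rag2 on the opposite strand (6.07% of the exon bases of Rag2) and 80 with Rag1 on the same strand. The strand setting of the counting is not given in the sources used here, so reads in the shared bases cannot be told apart. That gene had 80.9 and 65.3 CPM in LSK KO, 66.3 and 62.1 CPM in LSK Mut and 54.4 and 55.3 CPM in LSK WT. In MPP its level was 36.7 and 37.8 CPM in KO, 34.1 and 41.4 CPM in Mut and 46.3 and 51.7 CPM in WT. It was thus above WT in LSK KO and below WT in MPP KO, as Rag2 was, and in both populations KO overlapped Mut. Its part in the counts of Rag1 and Rag2 was not tested.

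The receptors had opposite distributions. Il7r (chr15:9505788-9530176, minus strand), the ligand-binding chain of the interleukin-7 receptor, had 4.25 and 7.40 CPM in LSK KO, 2.41 and 3.30 CPM in LSK Mut and 2.11 and 6.86 CPM in LSK WT. MPP cells held 13.2 and 14.1 CPM in KO, 10.8 and 26.9 CPM in Mut and 42.8 and 28.8 CPM in WT. All MPP libraries were above all LSK libraries, and both MPP WT libraries were above the other 4 MPP libraries. Notch1 (chr2:26457903-26516663, minus strand) had 163 and 159 CPM in LSK KO, 109 and 106 CPM in LSK Mut and 276 and 195 CPM in LSK WT. In MPP it had 57.1 and 57.5 CPM in KO, 79.1 and 50.4 CPM in Mut and 48.4 and 105 CPM in WT. The 3 LSK genotypes did not overlap, in the order Mut, KO, WT from low to high, and in MPP the WT libraries lay at the 2 ends of the range. Exons of Notch1 overlap those of the noncoding genes 0610009E02Rik and Gm13568 on the other strand over 7.50% and 2.91% of their length.

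Among the transcription factors, Mef2c and Satb1 were higher in every LSK library than in any MPP library, and were expressed in both populations. Mef2c (chr13:83504034-83667080, plus strand), which is needed for the lymphoid over the myeloid choice in mouse progenitors, had 246 and 248 CPM in LSK KO, 206 and 179 CPM in LSK Mut and 318 and 457 CPM in LSK WT. Among MPP libraries Mef2c had 75.8 and 95.3 CPM in KO, 119.7 and 103 CPM in Mut and 87.1 and 105 CPM in WT. The LSK genotypes were again in the order Mut, KO, WT without overlap. Satb1 (chr17:51736187-51833290, minus strand), an organiser of chromatin loops, had 233 and 241 CPM in LSK KO, 144 and 132 CPM in LSK Mut and 166 and 269.5 CPM in LSK WT. In MPP it had 37.4 and 47.0 CPM in KO, 42.3 and 41.6 CPM in Mut and 69.9 and 39.0 CPM in WT. Both LSK Mut libraries were below the other LSK libraries, and the LSK WT libraries enclosed those of KO.

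The other factors were expressed broadly. Ikzf1 (chr11:11685003-11772926, plus strand), a zinc finger regulator of lymphoid genes, had 226 and 194 CPM in LSK KO, 174 and 141 CPM in LSK Mut and 234 and 224 CPM in LSK WT. Its MPP levels were 176 and 169 CPM in KO, 205 and 186 CPM in Mut and 181 and 154 CPM in WT. The LSK Mut libraries were below the other LSK libraries, and all 12 libraries were within 141 to 234 CPM. Bcl11a (chr11:24078056-24174123, plus strand), needed for B cell development in mice, had 141 and 130 CPM in LSK KO, 114 and 108 CPM in LSK Mut and 91.7 and 215 CPM in LSK WT. In MPP it had 87.8 and 77.5 CPM in KO, 78.2 and 96.1 CPM in Mut and 87.3 and 123 CPM in WT. The LSK WT libraries enclosed all other libraries of Bcl11a but those of 4 MPP libraries below them. Tcf3 (chr10:80409514-80433647, minus strand), which encodes E2A, had 196 and 212 CPM in LSK KO, 181 and 235 CPM in LSK Mut and 246 and 173 CPM in LSK WT. Its levels in MPP were 339 and 348 CPM in KO, 314 and 371 CPM in Mut and 378 and 258 CPM in WT. Every MPP library was above every LSK library for Tcf3, and the genotypes overlapped within each population.

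The comparison of LSK with MPP cells asks how the members are distributed between the sorted populations. Dntt, Satb1 and Mef2c were higher in LSK in all 3 genotypes, Notch1 was higher in LSK in KO and WT, and Il7r was lower in LSK in Mut and WT. Changes are log2 fold changes from edgeR's quasi-likelihood test over all 12 libraries, with Benjamini-Hochberg adjustment over 14033 genes, and called genes are those with adjusted p below 0.05. In KO, 5 of 10 members were called, against 15.2% of all genes. In Mut 4 of 10 were called, against 8.76% of all genes, and in WT 5 of 10, against 24.0%. The median change of the members was 1.39 in KO, 0.18 in Mut and 0.50 in WT, beside 0.05, 0.03 and 0 over all genes. The ERCC spike-ins, synthetic RNAs added to each sample, took 0.0822% to 0.229% of counts in LSK and 3.16% to 5.15% in MPP libraries. Scaled by them, the median of all genes moved to 4.66 in KO, 5.88 in Mut and 4.17 in WT, and Il7r and Tcf3 turned from lower to higher in LSK wherever they are given below. Relative to that median Il7r was still at -2.68 in Mut and -2.90 in WT, and Tcf3 at -0.79 in KO, so the directions below are relative to the typical gene.

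Dntt was higher in LSK by 2.11 in KO (SE 0.196, adjusted p = 4.76e-05), by 1.31 in Mut (SE 0.191, adjusted p = 0.00163) and by 2.49 in WT (SE 0.199, adjusted p = 9.35e-06) with edgeR. Satb1 was higher by 2.49 in KO (SE 0.296, adjusted p = 0.000253), by 1.72 in Mut (SE 0.288, adjusted p = 0.00376) and by 2.00 in WT (SE 0.291, adjusted p = 0.000595) with edgeR. For Mef2c the changes were 1.53 in KO (SE 0.199, adjusted p = 0.000446), 0.79 in Mut (SE 0.195, adjusted p = 0.0290) and 2.02 in WT (SE 0.202, adjusted p = 4.72e-05). These are 4.31-fold, 2.48-fold and 5.60-fold differences for Dntt, the terminal transferase gene, in KO, Mut and WT. Notch1 was higher in LSK by 1.49 in KO (SE 0.333, adjusted p = 0.0123) and by 1.62 in WT (SE 0.334, adjusted p = 0.00502). Its change of 0.73 in Mut did not pass (SE 0.327, adjusted p = 0.207, edgeR).

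Il7r was lower in LSK than in MPP by -2.72 in Mut (SE 0.703, adjusted p = 0.0356) and by -2.99 in WT (SE 0.710, adjusted p = 0.0107) with edgeR, while its libraries in KO, at 4.25 and 7.40 against 13.2 and 14.1 CPM, gave no call. Tcf3 had changes of -0.75 in KO (SE 0.214, adjusted p = 0.0368), which passed, of -0.72 in Mut (SE 0.214, adjusted p = 0.0626) and of -0.60 in WT (SE 0.214, adjusted p = 0.0635), which did not. In Mut and WT Tcf3 passed with DESeq2 (adjusted p = 0.00977 and 0.0311) and with edgeR without a filter on low counts (adjusted p = 0.00595 and 0.0121). Ikzf1 stood at 0.45 in WT (SE 0.153, adjusted p = 0.0554) and missed the threshold. It passed with a replicate block (adjusted p = 0.0354), with RLE, another scaling of libraries (adjusted p = 0.0449), and with DESeq2 (adjusted p = 0.0176). Rag2 went in different directions by genotype, at 2.79 in KO (SE 1.09, adjusted p = 0.117), -2.45 in Mut (SE 1.06, adjusted p = 0.192) and -1.84 in WT (SE 1.05, adjusted p = 0.227), the last given outside the naming rule, and none passed in this fit. With DESeq2 Rag2 passed in KO (adjusted p = 0.0340). The call of Il7r in WT was lost without MPP WT replicate 1 (adjusted p = 0.0642), and the calls of Notch1 and Tcf3 in KO were lost without any 1 of the 4 KO libraries (adjusted p 0.0582 to 0.188), that of Tcf3 also with a replicate block (adjusted p = 0.0511). The calls of Mef2c and Il7r in Mut were lost without 6 and 7 of the 12 libraries in turn (adjusted p 0.0502 to 0.220).

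**Figure D2:**
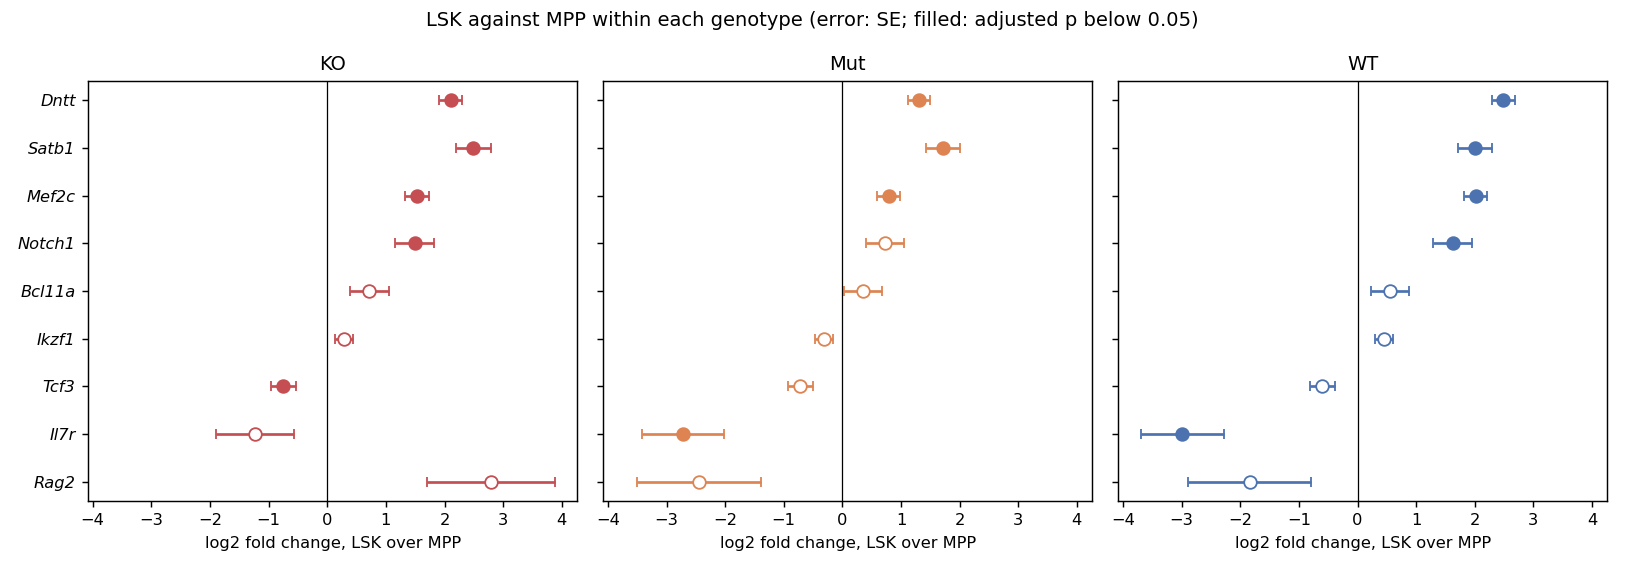
Log2 fold change of LSK over MPP (horizontal axes) for 9 members in KO, Mut and WT, with error bars for the SE and filled points for an adjusted p below 0.05. Dntt, Satb1 and Mef2c lie right of 0 in all 3 panels, Il7r and Tcf3 lie left of 0, and Rag2 lies at 2.79 in KO and -2.45 in Mut.

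Genes of other lymphocyte programmes moved with the population as well. The summed level of 12 T and NK cell markers was 310 to 508 CPM in LSK and 1184 to 1612 CPM in MPP libraries. Of the 11 tested, 5, 7 and 7 were called lower in LSK in KO, Mut and WT, against 8.14%, 5.21% and 13.7% of all genes. Nkg7 was among them, at -1.39, -1.41 and -2.41, and the share of each gene in the sum was not examined. Cd3e, a defining gene of this list, averaged 0 to 0.442 CPM in the LSK groups, with 0 counts in LSK Mut and LSK WT, and 11.4 to 16.8 CPM in the MPP groups. The 10 B cell markers summed to 53.7 to 77.6 CPM in LSK and 56.9 to 90.5 CPM in MPP, with Pax5, the B lineage factor, at 0 in all 12 libraries. The 8 plasmacytoid dendritic cell markers summed to 375 to 555 CPM in LSK and 711 to 984 CPM in MPP, and Siglech averaged 0 to 4.58 CPM in the LSK groups and 20.7 to 52.7 CPM in the MPP groups. The list did not move as one, and its genes Tcf4 and Bst2 were fitted higher in LSK in each genotype. Tcf4 was called, at 1.48 in KO (adjusted p = 0.000419), 1.002 in Mut (adjusted p = 0.00718) and 1.30 in WT (adjusted p = 0.000603, edgeR), and Bst2 was not. The part of such cells in the levels of Il7r and Rag2 was not tested.

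**Figure D3:**
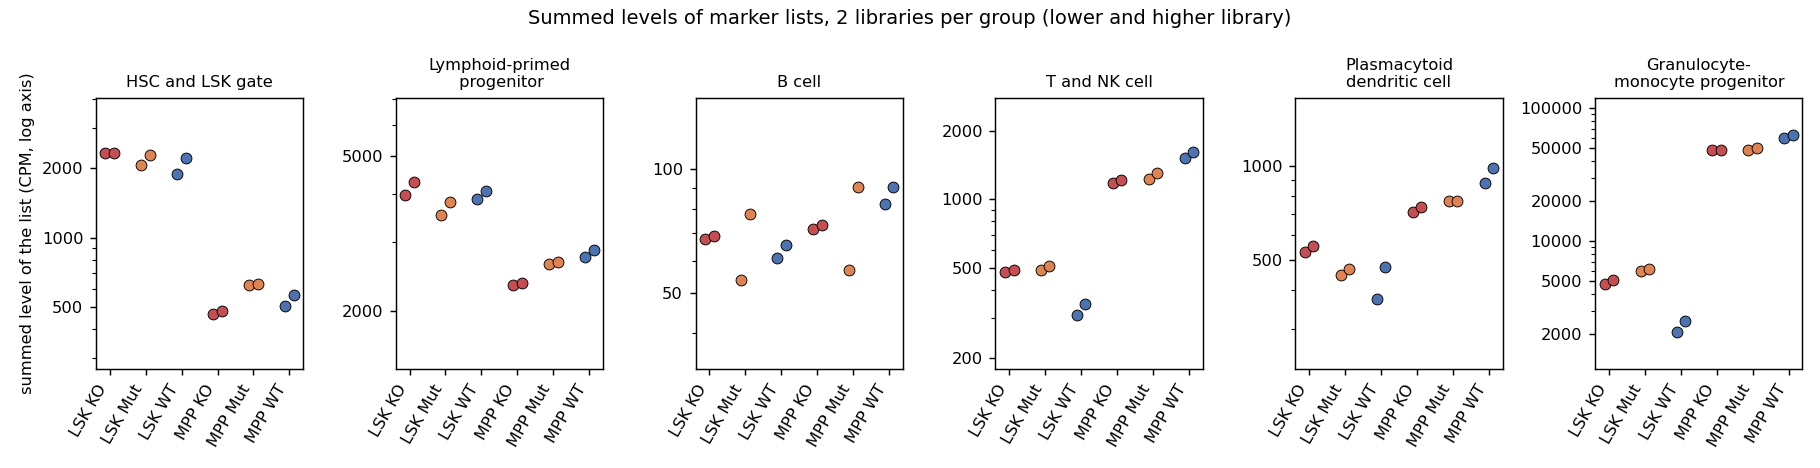
Summed level in CPM (log axes) of 6 lists of marker genes in the 6 groups, with a point for the lower and the higher library of a group. Stem cell and lymphoid-primed lists are higher in LSK, T and NK cell, plasmacytoid dendritic cell and granulocyte-monocyte progenitor lists are higher in MPP, and among LSK groups the granulocyte-monocyte list is lowest in WT at 2063 and 2501 CPM.

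In LSK cells, 5 of 10 members had both Mut libraries below both WT libraries, as had 20.3% of all genes, and 1 of them passed the test. Notch1 fell, and Dntt, Satb1, Ikzf1 and Mef2c were lower in both Mut libraries than in either WT library without passing the test. With edgeR over the 6 LSK libraries and Benjamini-Hochberg adjustment over 13170 genes, 1 of 10 members was called, against 1.28% of all genes. All 10 had a fitted change below 0, as had 49.5% of all genes. Their median change was -0.68, beside 0.01 over all genes. Notch1 changed by -1.15 (SE 0.197, adjusted p = 0.0466), a level 2.22-fold lower in Mut. Mef2c changed by -1.03 (SE 0.195, adjusted p = 0.0552), Dntt by -0.76 (SE 0.173, adjusted p = 0.0842), Ikzf1 by -0.56 (SE 0.168, adjusted p = 0.151) and Satb1 by -0.68 (SE 0.234, adjusted p = 0.184), all in the same edgeR fit.

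These values rest on the LSK WT libraries and on the scaling. With 1 LSK WT library left out, the other had no replicate, and the spread came from the KO and Mut libraries alone. Only the sizes of the changes are therefore given. Without LSK WT replicate 1 and without replicate 2 they were -0.88 and -1.37 for Notch1, -0.53 and -0.96 for Dntt and -1.27 and -0.73 for Mef2c. The call of Notch1 was lost without any 1 of the 2 Mut or 2 KO libraries. Scaled by the spike-ins, the changes of Dntt, Satb1, Ikzf1 and Mef2c turned positive and that of Notch1 was -0.03, while the median of all genes moved to 1.10. Relative to that median Notch1 stood at -1.14, Mef2c at -1.08, Dntt at -0.76, Satb1 at -0.73 and Ikzf1 at -0.60, against -1.16, -1.04, -0.77, -0.69 and -0.57 relative to the median under TMM.

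Mef2c and Notch1 were lower and Rag1 and Rag2 higher in both LSK KO libraries than in both LSK WT libraries, and none passed the test. No member was called (edgeR, adjusted p from 0.254 to 0.934), against 0.0456% of all genes, and 2 members had an unadjusted p below 0.05, against 13.8% of all genes; DESeq2 called 1 member. Those were Mef2c, at -0.67 (SE 0.194, adjusted p = 0.254), and Notch1, at -0.57 (SE 0.195, adjusted p = 0.300), both lower in each KO library than in either WT library, as were 18.0% of all genes. Rag1 and Rag2 were the 2 members with both KO libraries above both WT libraries, as were 25.0% of all genes. The median of the members was -0.10, beside 0 over all genes. Over the alternatives other than spike-in scaling, the change of Mef2c ran from -0.91 to -0.38 and that of Notch1 from -0.79 to -0.30. The ends at -0.91 and -0.79 came without LSK WT replicate 1 and replicate 2, where the other WT library had no replicate. The comparisons of KO and of Mut with WT share the WT libraries, so a displaced WT value moves both.

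The comparison of KO with Mut leaves the WT libraries out of the contrast, and asks where the libraries labelled KO and Mut differ. No member was called in LSK (edgeR, adjusted p from 0.824 to 1), against 0.0607% of all genes; 4 had an unadjusted p below 0.05, against 4.24% of all genes, and DESeq2 called 1. In 9 of 10 members both KO libraries were above both Mut libraries, as in 21.7% of all genes, and the median was 0.60, beside 0 over all genes. Tcf3 was the exception. Satb1 was higher in KO by 0.78 (SE 0.234, adjusted p = 0.915), Dntt by 0.61 (SE 0.172, adjusted p = 0.824), Notch1 by 0.58 (SE 0.195, adjusted p = 0.977) and Ikzf1 by 0.42 (SE 0.167, adjusted p = 1), none of which passed. Dntt was the member that DESeq2 called (adjusted p = 0.0416), and under spike-in scaling the signs of Notch1 and Ikzf1 flipped, to -0.01 and -0.14. The median of all genes then stood at -0.59, and relative to it Notch1 was at 0.58 and Ikzf1 at 0.45. Both of these genotypes share their libraries with the comparisons against WT above.

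**Figure D4:**
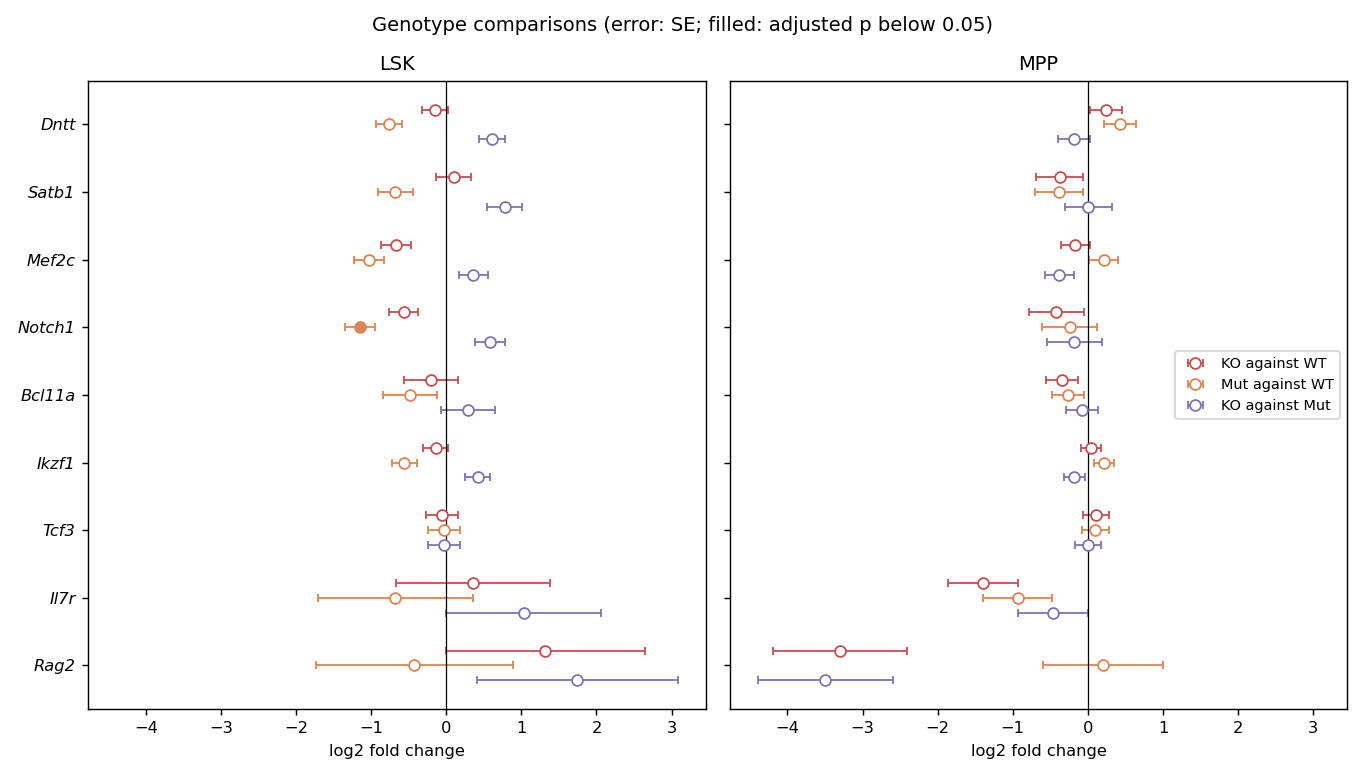
Log2 fold changes (horizontal axes) of 9 members for KO against WT, Mut against WT and KO against Mut in LSK and in MPP, with error bars for the SE and a filled point for an adjusted p below 0.05. Notch1 in LSK Mut against WT, at -1.15, is the filled point, and Rag2 in MPP KO lies at -3.30 against WT and -3.50 against Mut.

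Markers and related genes moved in the same LSK comparisons. The granulocyte-monocyte progenitor genes summed to 4809 to 5124 CPM in LSK KO, 5959 to 6166 CPM in LSK Mut and 2063 to 2501 CPM in LSK WT. Of the 8, 1 was called in KO (Mpo) and 3 in Mut (Mpo, Elane and Ly6c2), all higher than in WT, with Mpo higher by 1.29 (SE 0.0691, adjusted p = 0.00244) in KO and by 1.49 (SE 0.0695, adjusted p = 0.000220) in Mut (edgeR). The LSK gate genes gave 0 calls of 8 in both comparisons, where 0.0456% and 1.28% of all genes were called. They summed to 2323 to 2324 CPM in KO, 2054 to 2273 in Mut and 1887 to 2223 in WT. Those sums join opposite changes without overlap of libraries. In KO and Mut against WT, Mecom stood at -1.19 and -1.18, Hlf at -0.56 and -0.81 and Slamf1 at -2.81 and -3.12. Ly6a stood at 1.03 and 0.69, Cd34 at 0.54 and 0.38 and Procr at 0.48 and 0.73. The T and NK cell markers summed to 481 to 489.6 CPM in LSK KO, 490.5 to 508 CPM in LSK Mut and 309.6 to 348 CPM in LSK WT, with 1, 2 and 6 of the 12 at 0 in both libraries of KO, Mut and WT. Of the 8 tested, 0 were called in KO and 1 in Mut against WT, Nkg7, a cytotoxic granule gene, higher by 0.73 (SE 0.127, adjusted p = 0.0476, edgeR), and the part of such cells was not tested. The share of each gene in that T and NK sum was not examined. Whether the lower lymphoid members and the higher myeloid markers in LSK Mut come from the same cells was not tested. Rn45s, the ribosomal RNA precursor, took 2.47% and 2.51% of counts in LSK KO, 0.982% and 1.10% in LSK Mut and 3.65% and 3.70% in LSK WT, and its part in these differences was not tested.

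Of 18 further lymphoid-primed progenitor genes, 17 were tested in LSK. Myb, a progenitor transcription factor, fell to 436 and 452 CPM in Mut, against 747 and 683 CPM in WT (-0.71, SE 0.103, adjusted p = 0.0328, edgeR). Flt3, the cytokine receptor that marks lymphoid-primed progenitors, had 1049 and 1143 CPM in KO, 752 and 718 in Mut and 863 and 953 in WT, and was called in none of the LSK genotype comparisons. Its libraries did not overlap between the genotypes. The list had 0 calls in KO against WT and in KO against Mut, with medians of 0.11, 0.10 and 0.22 in KO against WT, Mut against WT and KO against Mut.

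The partners of the members were mostly without calls between LSK genotypes. In Mut against WT, 0 of 11 interleukin-7 receptor signalling genes, 0 of 16 Notch pathway genes and 0 of 8 genes of the E protein and inhibitor list were called, with medians of -0.03, -0.31 and -0.75. That last list also holds Lyl1, Tal1 and Ldb1, which stood at -0.84, -1.24 and -1.002. Id3, an inhibitor of E proteins, had 29.8 and 20.5 CPM in KO, 13.5 and 10.48 CPM in Mut and 52.3 and 48.4 CPM in WT, and its change of -2.09 in Mut did not pass (SE 0.421, adjusted p = 0.0639, edgeR). Hmgb1, a DNA-bending cofactor of the recombinase, rose by 0.96 in Mut, to 230.2 and 240.2 CPM, against 117 and 122 CPM in WT (SE 0.157, adjusted p = 0.0396), 1 of 12 V(D)J joining genes. Rbbp7, a subunit of the NuRD complex that Ikaros recruits, rose by 0.81 in Mut (SE 0.115, adjusted p = 0.0313), 1 of 13 genes of the Ikaros family and its NuRD partners. These 5 lists had 0 calls in KO against WT and in KO against Mut in LSK.

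In MPP cells no member was called in any genotype comparison, and Rag2 and Il7r had the largest changes. Rag1 was too low to be tested there, so 9 of 10 members entered edgeR's test over the 6 MPP libraries and 12947 genes. KO against WT gave adjusted p from 0.292 to 0.978, Mut against WT from 0.570 to 0.973 and KO against Mut from 0.275 to 0.9995, and 0.363%, 0.224% and 0.239% of all genes were called. At an unadjusted p below 0.05 there were 2, 0 and 1 members, against 8.47%, 9.75% and 9.48% of all genes, and DESeq2 called 1, 0 and 1. Rag2 was lower in KO than in WT by -3.30 (SE 0.894, adjusted p = 0.292) and lower in KO than in Mut by -3.50 (SE 0.899, adjusted p = 0.275), and with 16 counts in KO it did not pass in edgeR. Rag2 was the member that DESeq2 called (adjusted p = 0.0255 and 0.0116). Il7r was lower in KO than in WT by -1.40 (SE 0.467, adjusted p = 0.453), with both KO libraries below both WT libraries, as in 20.1% of all genes. The medians of the members were -0.35, 0.10 and -0.18, beside -0.01, 0 and 0 over all genes.

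In the same MPP comparisons the T and NK cell markers summed to 1184 to 1215 CPM in KO, 1226 to 1303 CPM in Mut and 1524 to 1612 CPM in WT. The plasmacytoid dendritic cell markers summed to 711 to 741, 770.4 to 775.6 and 885 to 984 CPM in KO, Mut and WT. Both sums were thus highest in the MPP WT libraries, as was Il7r, with 0 of 11 and 0 of 7 genes called for KO or for Mut against WT. A sum is carried by the most abundant genes of its list, and the share of each gene was not examined. In the T and NK list Nkg7 changed by -0.37 in KO (SE 0.0663) and -0.25 in Mut (SE 0.0662) against WT. Bcl11b, Tcf7, Gata3 and Zap70 stood at -1.89, -1.23, -1.04 and -1.03 in KO against WT. Cd3g, Cd3e and Lck stood at -0.79, -0.57 and -0.25 there. These genes had no overlap of libraries between KO and WT. Ncr1, at -0.16, and Cd3d and Cd4, fitted higher at 0.27 (SE 0.471) and 0.82 (SE 2.04), overlapped. The part of such cells in the level of Il7r was not tested. The granulocyte-monocyte list had 2 of 8 genes called lower in KO and 3 called lower in Mut than in WT, against 0.147% and 0.0927% of all genes. Its sum was also highest in MPP WT, at 59830 to 63050 CPM, against 48200 to 48920 CPM in KO and 48160 to 50570 CPM in Mut. The megakaryocyte-erythroid list had 3 of 7 called higher in KO (Car1, Car2 and Klf1) and 1 called higher in Mut (Car2), against 0.216% and 0.131% of all genes. In KO against WT its genes Itga2b and Pf4 went the other way, at -0.59 and -0.71, without overlap of libraries and without a call. The sums of this list were 5010 to 5095 CPM in KO, 4136 to 4337 in Mut and 3240 to 3752 in WT. The 6 related lists gave 0 calls in all 3 MPP comparisons (edgeR), with medians between -0.38 and 0.00.

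The difference of a genotype effect between the populations was tested as an interaction, with the MPP value subtracted from the LSK value. For Mut against WT the effect on Dntt differed by -1.18 (SE 0.268, adjusted p = 0.0446) and that on Mef2c by -1.22 (SE 0.276, adjusted p = 0.0429, edgeR), with Mut below WT in LSK and Mut above WT in the MPP means for both genes. LSK Mut libraries had 228 and 221 CPM of Dntt, against 435 and 318 CPM in LSK WT, where MPP Mut had 96.8 and 84.2 CPM, against 77.1 and 56.8 CPM in MPP WT. Those were 2 of 10 members, against 2.53% of all genes. For KO against WT no member was called, against 0.727% of all genes, with 1 at an unadjusted p below 0.05 (12.4% of all genes) and 1 called by DESeq2. For KO against Mut none was called, against 0.0641%, with 4 at an unadjusted p below 0.05 (6.38% of all genes) and 1 called by DESeq2. Rag2, singled out after its values were seen, had the largest differences in both, at 4.63 (SE 1.51, adjusted p = 0.226) for KO against WT and 5.24 (SE 1.52, adjusted p = 0.504) for KO against Mut. The calls of Dntt and Mef2c held without either LSK WT library and were lost without any 1 of the other 10 libraries, with adjusted p of 0.0528 to 0.152 for Dntt and 0.0629 to 0.160 for Mef2c. With an LSK WT library left out the other had no replicate, so those fits held no spread between LSK WT libraries. Under spike-in scaling the signs of Dntt and Mef2c flipped, to 0.49 and 0.40, while the median of all genes moved to 1.74. Relative to that median they were -1.25 and -1.34.

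Between the populations the lists around the members split. Flt3 was higher in LSK by 3.63 in KO (SE 0.159, adjusted p = 1.56e-07), by 2.65 in Mut (SE 0.152, adjusted p = 2.09e-06) and by 3.29 in WT (SE 0.157, adjusted p = 2.18e-07), while Irf8, a myeloid and dendritic cell regulator of the same lymphoid-primed list, was lower by -1.33, -1.45 and -2.96 (edgeR). Of the 18 genes of that list 7, 5 and 7 were called higher and 3, 3 and 6 were called lower in LSK in KO, Mut and WT. Over all genes 7.03%, 3.55% and 10.2% were called higher and 8.14%, 5.21% and 13.7% lower, and the counts of the lists below are of called genes too. Besides E proteins and Id genes, the list of 9 E protein and inhibitor genes holds Lyl1, Tal1 and Ldb1. Of the 9 genes 4, 2 and 5 were called higher, with Lyl1, Tal1 and Ldb1 among those in KO, and 1 was called lower in each genotype. That was Id2, an inhibitor of E proteins that innate lymphocytes need, at -2.001 in KO, -1.95 in Mut and -2.23 in WT. Of 11 interleukin-7 receptor signalling genes 2, 2 and 4 were higher and none was lower, although Il7r itself was lower in LSK. In the Ikaros and NuRD list 2, 0 and 3 of 14 were higher, with Ikzf2 (Helios) at 1.79 in KO and 1.95 in WT, and 1, 1 and 2 were lower, with Ikzf3 (Aiolos) averaging 0.108, 0 and 0 CPM in LSK KO, Mut and WT, against 7.83, 5.45 and 12.96 CPM in MPP. Of 17 Notch pathway genes 1, 0 and 1 were higher and 1, 1 and 2 lower, and of 12 V(D)J joining genes 1, 0 and 1 were higher and 1, 0 and 1 lower. The counts of these 2 lists are near the shares over all genes.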

How the data were processed

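Read counts per gene were deposited by the authors as a table for LSK and a table for MPP libraries, and they are whole-number counts, not normalized. Trimming used Trim Galore 0.4.1 and alignment to mm10 used TopHat2 2.0.13, per the submitters' processing notes and design text, and HTSeq 0.6.1 and Cufflinks are named there without a role. The annotation and strand setting are not given in the sources used here. Columns were matched to samples by title, and the MPP column whose name holds Lin and KO-2 was taken as MPP KO replicate 2. All 24630 symbols per table include 92 spike-ins, which were left out of library sizes and tests.

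Counts were tested with edgeR 4.0.16 in R 4.3.3 (TMM, filterByExpr with a minimum count of 10 and a total of 15, quasi-likelihood F test, Benjamini-Hochberg adjustment over all genes tested, threshold 0.05). Genotypes were compared within the 6 libraries of a population, leaving 3 residual degrees of freedom after the 3 group means, and populations and differences of effects in all 12 libraries, leaving 6. The scripts were tested on simulated data. DESeq2 1.42.0 and other scalings, filters, fits, blocks and left-out libraries were alternatives. Rag1 ratios use TMM library sizes, and floors and exact intervals cover counting error only.

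The members and the 12 gene lists were chosen with earlier results of these data known. All members are named. A change with its SE and adjusted p is given where it was called, or where the unadjusted p was below 0.05 and the libraries did not overlap. From the lists, called genes and the gene with the largest change without overlap could be named, and exceptions are stated. A called gene of the lymphoid-primed list is not reported here. Flt3 and markers are named beside the results they move with. Gene positions and exon lengths are from GENCODE for GRCm38, and sequences from RefSeq for GRCm38.p6. All 10 members matched a sequence there.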

Additional observations from a re-analysis of the deposited data

Results flagged for a closer look

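The effect of Mut against WT differed between the populations for 2 members by a test of the difference itself (edgeR's quasi-likelihood test, Benjamini-Hochberg adjustment over 14033 genes). For Dntt, the effect in LSK minus that in MPP was -1.18 on the log2 scale (SE 0.268, adjusted p = 0.0446), with both LSK Mut libraries below both LSK WT libraries and both MPP Mut libraries above both MPP WT libraries. For Mef2c it was -1.22 (SE 0.276, adjusted p = 0.0429), with both LSK Mut libraries below both LSK WT libraries and overlapping libraries in MPP.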

How the results depend on the processing

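The counts of members called moved by over 1.5 times in these cases, and ran from 4 to 7 for LSK against MPP in WT, against 5 as reported. With spike-in scaling the count became 0 for LSK Mut against WT, 2 for MPP Mut against WT, 1 for MPP KO against Mut and 9 for LSK against MPP in KO and in Mut. With DESeq2 it was 4 for LSK Mut against WT and 1 each for LSK KO against WT, LSK KO against Mut, MPP KO against WT, MPP KO against Mut and the population differences of KO against WT and of KO against Mut. For LSK Mut against WT it was 3 without a filter, 0 with a spread from only the 2 groups and 2 in the fit of all 12 libraries. With the replicate block it was 0 for LSK Mut against WT (Notch1 adjusted p = 0.0721) and 1 for the population difference of Mut, and in LSK against MPP Tcf3 was lost in KO (adjusted p = 0.0511) and Ikzf1 gained in WT (adjusted p = 0.0354). The numbers do not pair the libraries: their deviations correlated at -0.0510 to 0.0449 between groups. Leaving out 1 library at a time gave 0 to 2 calls for LSK KO against WT, 0 to 5 for LSK Mut against WT, 3 to 6 and 2 to 5 for LSK against MPP in KO and in Mut, and 0 to 2 for the population difference of Mut. Spike-in scaling reversed 14 changes: in LSK Mut against WT to 0.35 for Dntt, 0.37 for Satb1, 0.50 for Ikzf1 and 0.021 for Mef2c; in LSK KO against Mut to -0.14 for Ikzf1 and -0.0058 for Notch1; in LSK against MPP to 1.27 for Il7r and 3.58 for Tcf3 in WT, 3.87 for Tcf3 in KO, and 3.20 for Il7r, 3.21 for Rag2 and 5.19 for Tcf3 in Mut; and in the population difference of Mut to 0.49 for Dntt and 0.40 for Mef2c. This scaling moved the median of all genes in these comparisons to 1.10, -0.59, 4.17, 4.66, 5.88 and 1.74, and relative to it all 14 had the direction they have under TMM. Over the 36 changes given with a test, 455 of 556 recomputed values kept direction and side of the threshold, 52 lost and 35 gained a call; the cause was not tested. Over all genes, calls for LSK KO against WT ran from 3 to 593 across settings and from 0 to 1495 with 1 library left out, against 6 as reported, and those for LSK Mut against WT from 5 to 3002 and from 5 to 2476, against 168. The lowest and highest over all alternatives were 2 and 116 against 8 for LSK KO against Mut, 6 and 272 against 47, 9 and 2297 against 29 and 7 and 3254 against 31 for MPP KO against WT, Mut against WT and KO against Mut, 985 and 12011 against 2128, 516 and 12570 against 1229 and 2030 and 11550 against 3361 for LSK against MPP in KO, Mut and WT, and 2 and 868 against 102, 71 and 5428 against 355 and 5 and 119 against 9 for the population differences of KO against WT, Mut against WT and KO against Mut. The background shares move with these.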
